A study of Stylophora pistillata with 6 samples.

Results

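The 200 most abundant messenger RNA models of *Stylophora pistillata*, a stony reef coral with symbiotic algae in its cells, are described here in nubbins (small coral fragments) kept 6 months in the dark and in nubbins kept in a daily light cycle. They were chosen by level, as the transcripts with the XM prefix of RefSeq predicted mRNAs that had the highest mean CPM (counts per 10 to the power of 6 reads, scaled to the total of the library's column) over the 6 libraries, 200 of 33152 XM rows and of 36031 rows in all. Because the mean level chose the members, their high level is no finding. Darkness against control was not used in the choice, although a transcript that is very high in a single group can enter by that group alone. The darkness group (n = 3) had no light for 6 months and, per the labels, showed bleaching, a paling that follows loss of symbionts or of their pigment. The control group (n = 3) had 12 h of light a day at 230 μmol photons per m² per s. Both groups were kept at 25 °C in Mediterranean seawater on the same animal diet, and RNA came from subapical branch tissue. The labels do not say whether the nubbins came from separate colonies, so p-values measure only the spread between these samples.

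In animal tissue, a small number of genes usually supplies a large part of the mRNA. Such genes commonly encode ribosomal proteins and translation factors, cytoskeletal proteins, mitochondrial and glycolytic enzymes, and secreted or structural products of the tissue's main cell types. In corals the abundant products can also include mucus, stinging-cell, fluorescent and skeletal matrix proteins. This is background only. Of the 200 members, 150 (75%) could be matched to a symbol in RefSeq's gene table for jaStyPist1.2, against 54.4% of all XM rows. All 150 symbols are LOC numbers, which say nothing of the product, and all 150 loci are listed as protein coding, as the label of the group requires. The 150 members belong to 150 different genes, so no pair of matched members shares a locus. No role is therefore given to any member.

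Library totals were 31826786, 33307386 and 29123228 estimated reads in darkness and 19585371, 17819870 and 20218247 in the controls. Every darkness library was deeper than every control, so sequencing depth and darkness cannot be told apart. The median member had 21571 reads in a library, and 198 members had at least 1000 in every library. The lowest value of any member was 262 reads. A count of 21571 carries a counting error of 0.681%. Read levels are not corrected for transcript length, so the ranks order transcripts by reads, not by molecules. In bulk tissue, fewer cells of a type and less RNA per cell cannot be told apart.

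The members took 27.5%, 26.7% and 26.9% of all reads in the darkness libraries and 27.4%, 28.6% and 26.9% in the controls. The groups overlapped, with means of 27.0% ± 0.406 in darkness and 27.6% ± 0.916 in the controls (SD, n = 3 each). The sum over the head of the list differed between the groups. The 10 most abundant members together took 7.93%, 8.10% and 7.76% of the reads in darkness, below the 9.78%, 10.5% and 8.94% in the controls. The groups did not overlap in this sum, and darkness was 1.82 percentage points lower on average. The most abundant member alone took 4.2% of the reads in darkness and 5.11% in the controls on average. Another of the 10, XM_022940473.1, stood at rank 24 in darkness and rank 2 in the controls. The difference in this sum therefore follows in part from the choice. Without the single most abundant member, the other members took 22.8% ± 0.418 of the reads in darkness and 22.5% ± 0.651 in the controls (SD, n = 3 each), so the difference over the list changed sign.

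Most of the list was shared by both groups. Ranked separately by group, the 200 highest XM transcripts of darkness and the 200 highest of the controls had 163 in common, which is 81.5% of each list. All 163 are members. Another 17 members were among the 200 highest in darkness only and 19 in the controls only. XM_022939721.1 of LOC111334038 was in neither list, at rank 218 in darkness and rank 202 in the controls. In single libraries, between 176 and 184 members were among the 200 highest, and 146 were so in all 6 libraries. The mean CPM spanned 46569 at the top to 465 at rank 200. The members just inside the limit were XM_022940838.1, XM_022939721.1 and XM_022947865.1 with 474, 468 and 465 CPM. Just outside it were XM_022947292.1, XM_022943387.1 and XM_022943524.1 with 463, 462 and 462 CPM.

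The study set nubbins from 6 months of darkness against lit ones. All 200 members passed the filter on low counts and were tested. In darkness 27 members were higher (13.5%, against 8.08% of all 26906 tested transcripts) and 31 were lower (15.5%, against 10.5%). Together 58 members changed (29.0%, against a background of 18.5%; edgeR quasi-likelihood test, Benjamini-Hochberg adjusted p under 0.05 over all tested transcripts). At least 2-fold changes were called in 18 members, which is 9.0% against 9.48% of all tested transcripts. Of these 18, 9 were higher (background 4.01%) and 9 lower (background 5.47%). The median log2 fold change was −0.03 over the members and 0.05 over all tested transcripts. The median size of the change in either direction was 1.16-fold over the members and 1.40-fold over all tested transcripts. The median standard error of the log2 fold change was 0.097 over the members and 0.29 over all tested transcripts. Neither the shares called nor these sizes were therefore compared at like precision.

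The count of 58 was 33 when darkness replicate 2 or darkness replicate 3 was left out, and 94 with DESeq2, which called every one of the 58. In all 6 fits with a library left out, 31 members were called, 14 higher and 17 lower. Scaled to library totals alone, 42 members were higher and 32 lower, so the direction with more calls depends on the scaling.

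**Figure D1:**
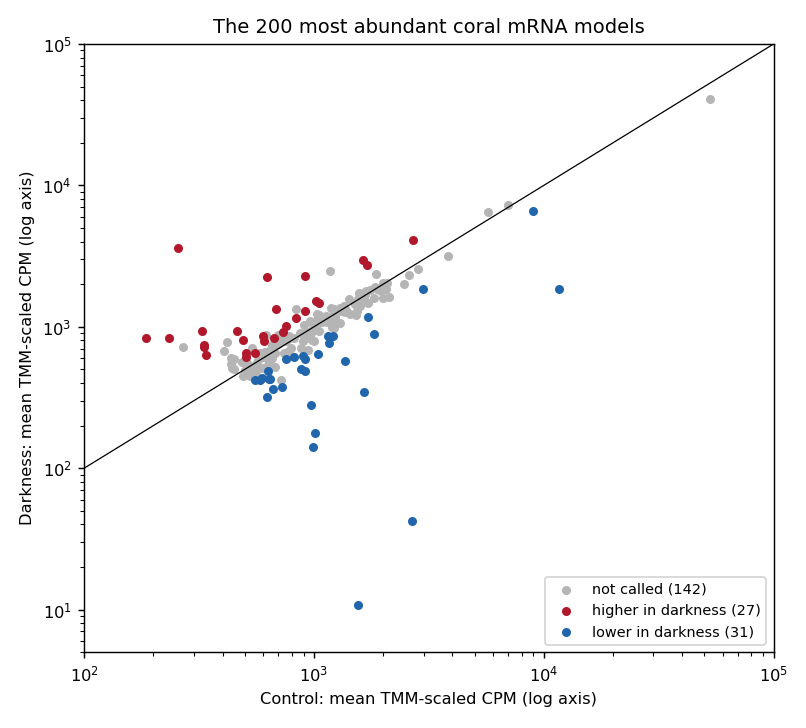
Mean level of each of the 200 members in darkness (vertical axis) and in the controls (horizontal axis), in TMM-scaled CPM on log axes, each mean over 3 libraries. Most of the 142 members that were not called lie near the line of equal levels, 27 called members lie above it and 31 below it, with 2 far below at no more than 61.4 CPM in any darkness library.

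Within the list, the share called was lowest at the top. Of the 100 most abundant members 22 were called (22%), 11 in each direction, and of members ranked 101 to 200, 36 were called (36%), 16 higher and 20 lower. Beyond the list the share was 41.5% at ranks 201 to 400 (83 of 200) and 43.3% at ranks 401 to 1000 (260 of 600). The median standard error of the log2 fold change was alike over these ranks, 0.103 for the first 100, 0.091 for ranks 101 to 200, 0.094 for ranks 201 to 400 and 0.089 for ranks 401 to 1000. The median change in either direction was 1.12-fold, 1.21-fold, 1.24-fold and 1.24-fold in the same order of ranks. These bands were chosen after the data were seen and are described without a test.

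**Figure D2:**
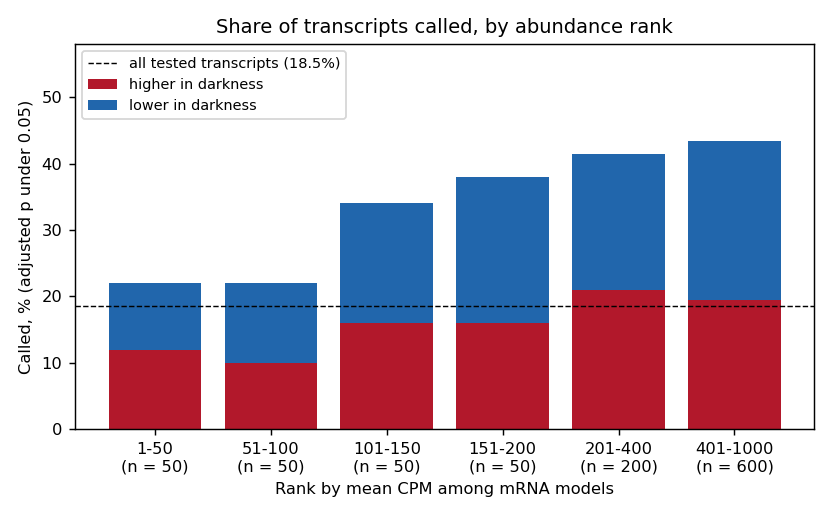
Share of transcripts called (adjusted p under 0.05, edgeR) by rank of mean CPM among XM rows, split by direction. Bars for ranks 1 to 50 and 51 to 100 stand at 22%, those for ranks 101 to 150 and 151 to 200 at 34% and 38%, and the dashed line marks 18.5% of all tested transcripts.

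Levels from here on are TMM-scaled CPM, in which libraries are set to a common level by edgeR's trimmed mean method, as in the fit of the fold changes, so they differ slightly from the CPM of the ranking. The most abundant member, XM_022926465.1 of LOC111323168, had 41820, 40895 and 39830 CPM in darkness and 50910, 59319 and 48828 in the controls. All darkness libraries lay below all controls, but the log2 fold change of −0.38 (SE 0.105) missed the threshold (adjusted p = 0.0597, edgeR), with adjusted p between 0.0554 and 0.208 when 1 library was omitted. DESeq2 (adjusted p = 0.000529), limma-voom (0.0181) and scaling to library totals (0.0312) put it past the threshold. The edgeR fit on sums to genes did so too (adjusted p = 0.0475). Its gene has 1 matched transcript, however, so its own counts were unchanged in that fit. It was at rank 1 in both groups, and no other member came near it. XM_022934511.1 of LOC111329748 had 6378, 6747 and 6504 CPM in darkness and 8688, 9111 and 9106 in the controls. It was 1.37-fold lower in darkness (log2 fold change −0.46, adjusted p = 0.00956, SE 0.068, edgeR), and the call was lost without darkness replicate 3 (adjusted p = 0.059).

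XM_022934136.1 had 7610, 7057 and 7116 CPM in darkness and 6824, 7432 and 6643 in the controls. The groups overlapped, and the log2 fold change of 0.06 had a 95% interval of −0.14 to 0.26. XM_022948545.1 of LOC111341558 had 6420, 6840 and 6254 CPM in darkness and 6025, 5590 and 5594 in the controls. Its darkness libraries were all higher, but the change of 0.18 on the log2 scale (SE 0.075) did not pass the threshold (adjusted p = 0.158, edgeR). XM_022943358.1 of LOC111337124, with 2577 ± 29.5 CPM in darkness and 2832 ± 133 in the controls, and XM_022926037.1, with 2323 ± 54.4 CPM in darkness and 2596 ± 216 in the controls (SD, n = 3 each), did not pass it either. DESeq2 called XM_022948545.1 (adjusted p = 0.0287) and XM_022943358.1 (adjusted p = 0.0162).

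Among the 10 most abundant, XM_022922198.1 was the only member called higher. It had 3910, 4327 and 4048 CPM in darkness and 2945, 2627 and 2492 in the controls, a 1.52-fold rise (log2 fold change 0.61, SE 0.09, adjusted p = 0.00927, edgeR). Its call held in each fit that omitted 1 library, where adjusted p was at most 0.0463. XM_022935925.1 of LOC111330927 had 1902, 1881 and 1793 CPM in darkness and 2780, 3476 and 2680 in the controls, 1.60-fold lower (adjusted p = 0.0141, edgeR). Omitting any of the darkness libraries ended its call (adjusted p at most 0.067).

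XM_022940473.1, at rank 4 over all libraries, differed most between the groups among the first 10. It had 2317, 1767 and 1443 CPM in darkness and 13356, 17019 and 4690 in the controls. Every darkness library was lower, but the controls were spread: replicate 3 had less than the other controls, with a coefficient of variation (CV, SD over mean) of 54.2%. The 6.34-fold fall (adjusted p = 0.0222, edgeR) kept its call only without control replicate 3 and lost it in the other 5 such fits (adjusted p at most 0.0925). The transcript stood at rank 24 in darkness and rank 2 in the controls.

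Of the 9 falls of at least 2-fold, 6 were outside the 200 highest transcripts of darkness, and of the 9 such rises, 7 were outside the 200 highest of the controls. These members are on the list through their high group, so the sizes of their changes follow in part from the choice. XM_022943692.1 of LOC111337408 had 12.5, 7.53 and 12.2 CPM in darkness and 1841, 1297 and 1513 in the controls. It was 145-fold lower in darkness (log2 fold change −7.18 ± 0.30 SE, adjusted p = 0.00072 by edgeR) and stood at rank 11936 there, against rank 38 in the controls. XM_022944179.1 had 26.0, 61.4 and 40.2 CPM in darkness and 2112, 2866 and 3020 in the controls. It was 62.7-fold lower (log2 fold change −5.97, SE 0.41, adjusted p = 0.00149, edgeR), at rank 4477 in darkness and rank 10 in the controls. Both had whole-number estimates in all 6 libraries, and both kept their calls whichever library was omitted (adjusted p at most 0.0143).

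The next falls were much smaller. XM_022936059.1 of LOC111331035 had 210, 96.2 and 115 CPM in darkness and 1012, 1159 and 802 in the controls, 7.06-fold lower (adjusted p = 0.00631, edgeR). XM_022928731.1 of LOC111325033 had 166, 154 and 208 CPM in darkness and 1162, 738 and 1129 in the controls, 5.74-fold lower (adjusted p = 0.00257, edgeR). XM_022931182.1 had 381, 233 and 429 CPM in darkness and 1486, 1287 and 2190 in the controls, 4.76-fold lower (adjusted p = 0.00876, edgeR). In all 3 every darkness library lay far below every control, although the darkness libraries of XM_022936059.1 differed among themselves (CV 43.3%).

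XM_022931487.1 of LOC111327330 had 327, 256 and 255 CPM in darkness and 1215, 789 and 919 in the controls, 3.49-fold lower (adjusted p = 0.00412, edgeR). XM_022937686.1 had 609, 544 and 552 CPM in darkness and 1400, 1192 and 1492 in the controls, 2.40-fold lower (adjusted p = 0.00197, edgeR). These 5 kept their calls whichever library was omitted (adjusted p at most 0.0389). Of the 5, XM_022928731.1, XM_022931182.1 and XM_022937686.1 had no whole-number estimate in any library. XM_022931487.1 had whole numbers in 3 libraries and XM_022936059.1 in all 6. The remaining fall of at least 2-fold, XM_022931183.1 of LOC111327082, was named after its values were seen. It had 1052, 873 and 755 CPM in darkness and 1747, 1648 and 2105 in the controls, 2.05-fold lower (adjusted p = 0.00987, edgeR), and lost its call without darkness replicate 2 (adjusted p = 0.0521).

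Among the rises, XM_022951457.1 of LOC111344246 was the largest and the least even. It had 5352, 2781 and 2753 CPM in darkness and 95.7, 577 and 93.3 in the controls. Darkness replicate 1 was highest, and control replicate 2 stood above the other controls but below every darkness library. The fitted rise was 14.2-fold (log2 fold change 3.83, SE 0.91, adjusted p = 0.0405, edgeR). Omitting control replicate 2 kept the call and gave a 38.3-fold rise (log2 fold change 5.26, adjusted p = 0.00718 by edgeR), and omitting any of the other 5 libraries ended it (adjusted p at most 0.111). It stood at rank 6 in darkness and rank 468 in the controls, and its estimate was a whole number in only 1 library.

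The other rises of at least 2-fold were more even. XM_022927505.1 had 899, 808 and 775 CPM in darkness and 178, 174 and 207 in the controls, 4.44-fold higher (log2 fold change 2.15, SE 0.10, adjusted p = 0.00072, edgeR). XM_022929696.1 of LOC111325804 had 2260, 2453 and 2081 CPM in darkness and 631, 662 and 572 in the controls, 3.64-fold higher (adjusted p = 0.000783, edgeR). XM_022925219.1 of LOC111322163 had 1097, 728 and 689 CPM in darkness and 216, 251 and 233 in the controls, 3.59-fold higher (adjusted p = 0.0042, edgeR). In these 3 the lowest darkness library lay far above the highest control.

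XM_022942986.1 of LOC111336823 had 988, 873 and 939 CPM in darkness and 352, 309 and 320 in the controls, 2.85-fold higher (adjusted p = 0.000862, edgeR). XM_022925629.1 of LOC111322521 had 2243, 2315 and 2249 CPM in darkness and 929, 938 and 883 in the controls, 2.48-fold higher (log2 fold change 1.31, SE 0.06, adjusted p = 0.00072, edgeR). Its CV was 1.76% in darkness and 3.24% in the controls, a small spread within each group. XM_022933727.1 of LOC111329114 had 907, 696 and 641 CPM in darkness and 339, 360 and 295 in the controls, 2.26-fold higher (adjusted p = 0.00671, edgeR). XM_022948334.1 had 791, 696 and 679 CPM in darkness and 366, 322 and 306 in the controls, 2.18-fold higher (adjusted p = 0.00232, edgeR). In each of these the groups were apart in every library. The 7 rises after XM_022951457.1 kept their calls whichever library was omitted (adjusted p at most 0.0312). Of the 7, XM_022929696.1 and XM_022942986.1 had no whole-number estimate in any library, and the rest had whole numbers in all 6. XM_022926393.1 of LOC111323102, named after its values were seen, was 2.00-fold higher, with 929 ± 61.6 CPM in darkness and 464 ± 46.6 in the controls (SD, n = 3 each; adjusted p = 0.00298, edgeR).

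**Figure D3:**
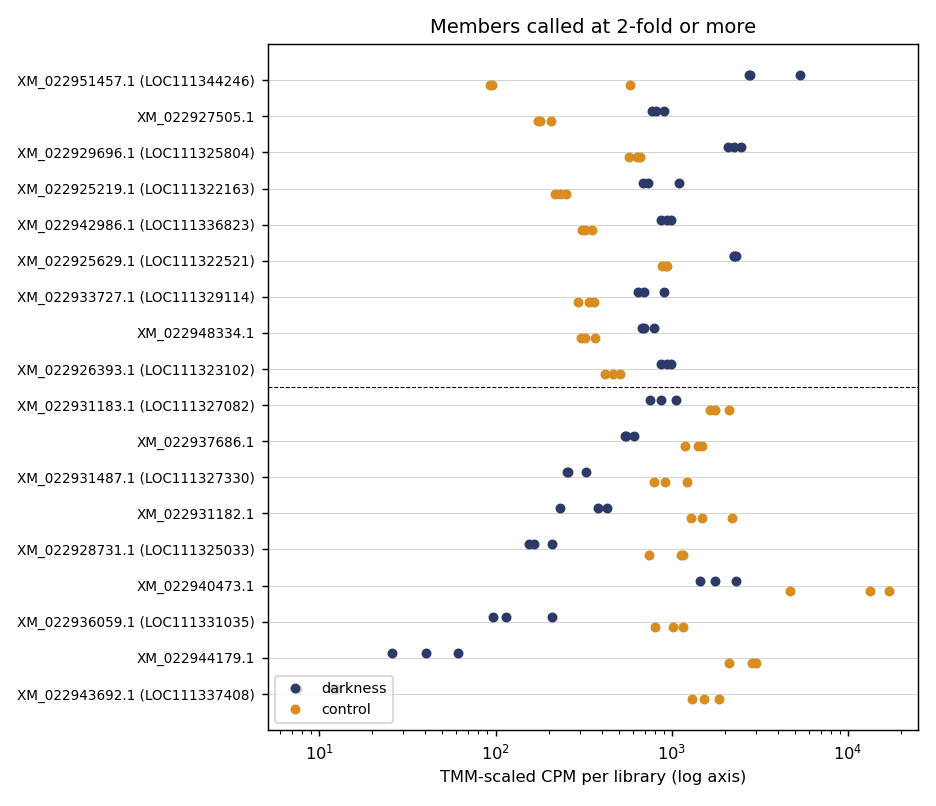
TMM-scaled CPM in each library (log axis) of the 18 members called at 2-fold or more, 9 higher (above the dashed line) and 9 lower in darkness, 3 darkness and 3 control points for each. The groups are apart in all 18, and XM_022943692.1 has the widest gap, with at most 12.5 CPM in darkness and at least 1297 in the controls.

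The other 40 called members changed by less than 2-fold, 25 of them by less than 1.5-fold. The smallest called rise was that of XM_022923379.1 of LOC111320705, with 657 ± 17.8 CPM in darkness and 554 ± 15.8 in the controls (SD, n = 3 each; 1.19-fold, adjusted p = 0.0329, edgeR), a call that no fit with a library left out kept. The smallest called fall was that of XM_022939086.1 of LOC111333493, with 592 ± 9.19 CPM in darkness and 752 ± 15.7 in the controls (SD, n = 3 each; 1.27-fold lower, adjusted p = 0.01, edgeR), kept in 4 of 6 such fits. The called rises together held 3.91%, 3.89% and 3.79% of the reads in darkness and 2.01%, 1.83% and 1.94% in the controls. The called falls held 2.53%, 2.48% and 2.43% in darkness and 5.15%, 5.40% and 4.69% in the controls. The test chose these members, so the sums are a description of their weight in the libraries. The 142 members not called held 20.7% ± 0.353 of the reads in darkness and 20.6% ± 0.675 in the controls (SD, n = 3 each).

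For 113 of the 142 members that were not called, the 95% interval of the fold change lay within 1.5-fold in either direction, so larger changes lie outside these intervals. Nearest to no change were XM_022931369.1, with 1164 ± 49.1 CPM in darkness and 1164 ± 56.2 in the controls, and XM_022947139.1 of LOC111340312, with 666 ± 24.5 CPM in darkness and 665 ± 34.4 in the controls. XM_022939185.1 of LOC111333579 had 987 ± 25.7 CPM in darkness and 990 ± 88.1 in the controls (SD, n = 3 each throughout). Their log2 fold changes had intervals of −0.17 to 0.17, −0.16 to 0.17 and −0.21 to 0.20. For the other 29 the interval reached beyond 1.5-fold, so larger changes lie inside it. The intervals are not adjusted for the number of tests, and some of these 29 leave out no change. Examples on the log2 scale are XM_022926465.1 (−0.635 to −0.117) and XM_022931515.1 (0.254 to 2.576), which missed the adjusted threshold. In all, the groups did not overlap in scaled CPM in 103 members (51.5%, against 43.7% of all tested transcripts), 46 with darkness above and 57 with darkness below. All 58 called members are among them, and 45 others. On CPM over library totals darkness was above in 74 members and below in 48, so this split too depends on the scaling.

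The members varied little among nubbins. Their median CV was 6.14% among darkness libraries and 9.47% among controls, against 15.1% in darkness and 24.0% in the controls over all tested transcripts. At ranks 401 to 1000 the median CV was 4.63% in darkness and 8.54% in the controls, lower than among the members. The CV was larger in the controls for 148 members and larger in darkness for 52. It was under 10% in both groups for 94 members. It reached at least 25% in 9 members in darkness and in 14 in the controls, and in 7 of these 14 control replicate 2 was the library farthest from the group's median.

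Among the members with the largest spread in the controls, XM_022923052.1 of LOC111320379 had 2993, 2277 and 2143 CPM in darkness and 449, 1709 and 1362 in the controls. Its darkness libraries were all higher, but control replicate 1 was far below the other controls (CV 55.5%), and the fitted 2.11-fold rise did not pass the threshold (adjusted p = 0.201, edgeR), though it did with DESeq2 (adjusted p = 0.0478). XM_022940146.1 of LOC111334425 had 592, 530 and 661 CPM in darkness and 478, 244 and 626 in the controls, and its groups overlapped. Its estimates were not whole in any library, and it held 53.2% of the reads matched to its gene, which has 3 matched transcripts. In darkness XM_022931515.1 had the largest spread, with 1201, 395 and 556 CPM, against 343, 198 and 266 CPM in the controls. Its darkness libraries were all higher, yet the log2 fold change of 1.42 (95% interval 0.25 to 2.58) did not pass the threshold (adjusted p = 0.0966, edgeR). Without darkness replicate 1 the fitted rise was 1.75-fold, against 2.67-fold with all libraries, and DESeq2 called it (adjusted p = 0.0368).

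**Figure D4:**
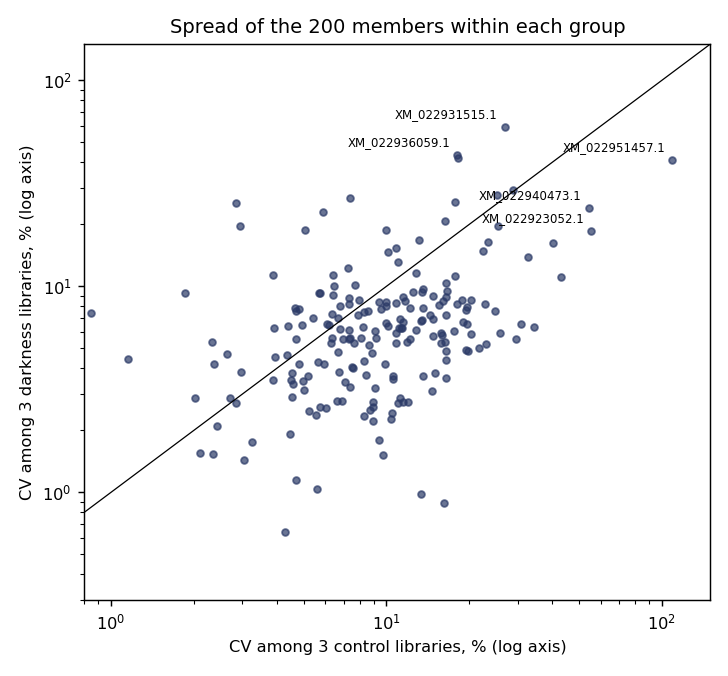
Coefficient of variation of each of the 200 members among the 3 darkness libraries (vertical axis) and among the 3 controls (horizontal axis), in percent of the mean, on log axes with the line of equal spread. More members lie below the line (148) than above it (52), and XM_022951457.1 is farthest right at 109%.

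The members also tended to deviate together within a group. Darkness replicate 1 lay above the group's mean (on the log2 scale) in 150 of 200 members, replicate 2 in 53 and replicate 3 in 88. Among the controls replicate 2 lay above the mean in 152 members, replicate 1 in 66 and replicate 3 in 47. Over all 24992 tested XM transcripts these shares were between 47.8% and 53.3% in every library, against 75% and 76% for the members in the 2 libraries where they stood high. Darkness replicate 1 and control replicate 2 had the lowest TMM factor of their group (1.01 and 0.919), and a lower factor gives higher scaled levels. The median deviations were 0.067 on the log2 scale in darkness replicate 1 and 0.102 in control replicate 2. On CPM over library totals these medians were 0.038 and 0.026, and the members above the mean were 135 in darkness replicate 1, 121 in control replicate 2 and 87 in control replicate 3. On that scale 67.5% of members lay above the mean in darkness replicate 1, against 44.4% of tested XM transcripts in the same library. In control replicate 2 these shares were 60.5% and 38.8%, and in control replicate 3 they were 43.5% and 62.2%. Over the 6 libraries the share of tested XM transcripts ran from 38.8% to 62.2%. The order of darkness replicate 1, 3, 2 from high to low held in 103 members (51.5%, against 17.9% of tested XM transcripts), and the order of control replicate 2, 1, 3 in 110 (55.0%, against 20.3%). Both orders together held in 69 members (34.5%, against 3.84%), in 9.5% of transcripts at ranks 201 to 400 and in 7.0% at ranks 401 to 1000. On CPM over library totals the number was 40 members, against 2.18% of tested XM transcripts, so the number depends on the scaling.

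Of the 69, 4 were called (1 higher and 3 lower; 5.8%), against 22.9% of the 959 tested XM transcripts with both orders and 18.5% of all tested transcripts. The median log2 fold change of the 69 was −0.05, with a range of −2.82 to 0.32. They took 8.59%, 7.89% and 8.32% of the reads in darkness and 7.98%, 8.85% and 7.76% in the controls, so the groups overlapped. Their median CV was 6.41% in darkness and 11.5% in the controls. The orders were noticed in the data, transcripts share the same 6 libraries, and the part of these deviations in the calls was not tested. Without control replicate 2, 55 members were called, and without darkness replicate 1, 43.

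**Figure D5:**
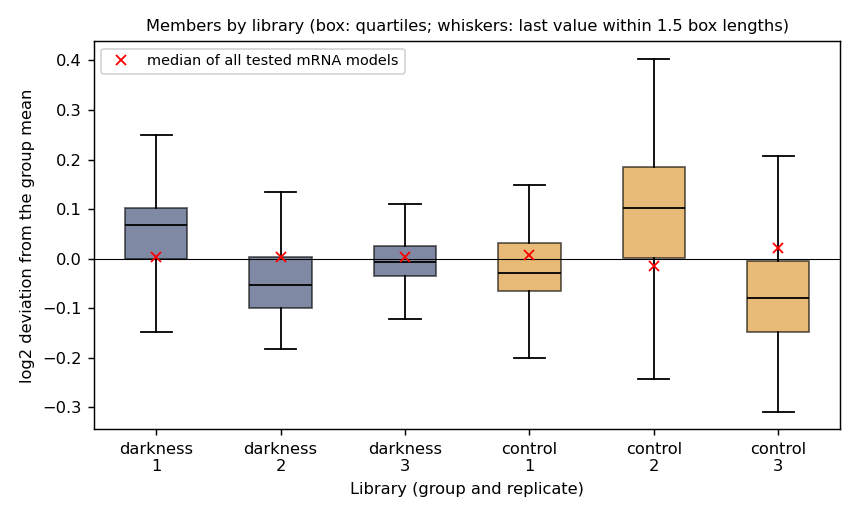
Log2 deviation of the 200 members from their group's mean in each library (boxes show quartiles, whiskers reach the last value within 1.5 box lengths, outlying values not drawn), with the median of all tested mRNA models as a cross. The member medians stand at 0.067 in darkness replicate 1 and 0.102 in control replicate 2 and at −0.079 in control replicate 3, while the crosses stay within 0.022 of 0.

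How reads were assigned bears on some members. Estimates were whole numbers in all 6 libraries for 148 members (74%), against 51.3% of XM rows with reads, and in the other 52 at least 1 estimate was not whole. An estimate that is not whole can arise where reads are divided between similar transcripts. Of the 148, 34 were called (23.0%, against 23.5% of tested XM transcripts with whole estimates), and of the 52, 24 (46.2%, against 14.3% of those without). These backgrounds cover transcripts of every abundance. At ranks 201 to 400, whole or not, the share called was 41.5%. Among the 150 matched members, 132 were the only transcript matched to their gene. Rows without a symbol were not counted, so more transcripts of these genes may be among them. Of the other 18, 9 held at least 90% of the reads matched to their gene, and XM_022937632.1 of LOC111332319 held the least at 52.9%. With reads summed to genes before the fit, 63 members were called, including all 58. Only those 18 members had counts that summing could change, so this fit says little of reads divided between other transcripts.

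In 3 pairs of members the accession numbers were consecutive, and in all of these the estimates of both transcripts were fractional in every library. Whether they are related in sequence was not analysed here. XM_022927685.1 of LOC111324192 had 1964, 2360 and 2725 CPM in darkness and 2045, 1038 and 2509 in the controls. XM_022927686.1, its pair, had 3274, 3227 and 2984 CPM in darkness and 3726, 4595 and 3118 in the controls. In both groups one transcript was high where the other was low. Their sum was 5238, 5587 and 5709 CPM in darkness and 5770, 5633 and 5627 in the controls. The CV of XM_022927685.1 among the controls was 40.4% alone, while that of the sum was 1.43%. Neither was called, at log2 fold changes of 0.33 and −0.27 (adjusted p = 0.567 and 0.281, edgeR).

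XM_022931182.1 and XM_022931183.1, described above, both fell, and their sum was 1433, 1106 and 1183 CPM in darkness and 3233, 2934 and 4295 in the controls. The sum of XM_022935925.1 and XM_022935926.1 was 2752, 2837 and 2685 CPM in darkness and 3639, 4727 and 3469 in the controls, where XM_022935926.1 alone was not called, at a log2 fold change of −0.10 (adjusted p = 0.76, edgeR). In the gene order of jaStyPist1.2, 1 pair of members was adjacent: LOC111326620 and LOC111326663, with log2 fold changes of −0.04 and −0.05, neither called. Unmatched members were called in 20 of 50 cases (40.0%, against 15.9% of unmatched tested XM transcripts) and matched members in 38 of 150 (25.3%, against 21.2%). The backgrounds here too cover transcripts of every abundance, and the differences in share were not tested.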

How the data were processed

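RNA of 6 samples was sequenced, 3 from darkness and 3 from control nubbins, grouped by their titles. The authors deposited estimated counts per RefSeq predicted transcript, not scaled to depth. The submitters' processing notes name fastp, Salmon 0.11.4 and DESeq2 without their roles. Strandedness, settings and build: not given in the sources used here. No column was left unused.

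CPM for ranking were taken over column totals. Estimates were rounded and transcripts filtered with filterByExpr (26906 kept). Libraries were scaled by TMM and compared by edgeR 4.0.16 (R 4.3.3; robust quasi-likelihood fit to all 6 libraries with group alone; two-sided). Transcripts were called at a Benjamini-Hochberg adjusted p under 0.05, adjusted across the 26906. SE is the log2 fold change over the square root of F, and 95% intervals use the test's degrees of freedom. The test was checked on counts simulated from the levels, depths and edgeR dispersions (its estimates of spread) of these data, drawn independently for each transcript. There it called 16 of 50 members changed 1.5-fold, 40 of 50 changed 2-fold and 0 of 100 unchanged members. The draws held no deviations shared by members within a library, so these counts need not hold for the data. DESeq2 1.42.0, limma-voom (limma 3.58.1), other scalings, filters and member rules and leaving out libraries were alternatives.

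Named members are the 10 most abundant, the 8 largest called rises and falls, the 4 with the largest CV in each group, the 3 on each side of rank 200 and the 3 nearest no change; any other was named after its values were seen. Members and lists were chosen with earlier results of these data known. Symbols were matched by accession without version. Product names, protein sequences and promoters were not used here, so the planned description by function, protein and promoter was not run.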

Additional observations from a re-analysis of the deposited data

How the results depend on the processing

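The count of 58 called members stayed within 1.5 times under RLE or library-total scaling, no filter or a stricter one, limma-voom and sums to genes (56 to 74), the last chosen after the data were seen. Outside it were DESeq2 with 94 (43 higher and 51 lower), an adjusted p under 0.01 with 34 (14 and 20) and, among rises only, scaling by library totals with 42. Leaving out 1 library gave 33 to 55 called members, 14 to 23 higher and 18 to 32 lower, with fewer samples in each fit. Blocking on replicate number left 24 calls (13 higher, 11 lower), all among the 58. No label pairs the numbers, and deviations of same-numbered libraries correlated at −0.043, −0.027 and 0.043 across tested transcripts and at −0.214, −0.145 and 0.283 across the members. Of the darkness libraries, replicate 3 correlated best with its own number across tested transcripts, and none did across the members. The share of members called, 29.0%, was within 1.5 times under the 6 other member rules. The median log2 fold change of the members, −0.03, was 0.062 with library totals and −0.079 to 0.04 with 1 library left out, so its sign is not fixed. The difference in read share, −0.632 percentage points, was 0.272 without the most abundant member and −1.21 over XM reads alone, and ran from −1.031 to −0.132 with 1 library left out. Among the 37 transcripts named by rule no alternative reversed a call. Of the refits, 519 left a transcript called or not called as before, 26 ended a call and 10 added one. The direction changed in 20 refits without a call. Transcripts named after their values were seen are not in these counts. The causes were not tested. Descriptions by protein, promoter and product name were not run. With 3 libraries a group, small changes of uneven members could not be resolved. In the simulated data, which held no shared deviations, most changes of 1.5-fold and some of 2-fold were missed too. In the data themselves 25 members were called at less than 1.5-fold, so the simulated shares need not hold there.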
